A study of Mus musculus with 6 samples.

Results

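The CD-numbered surface molecules are the genes whose symbol is Cd followed by a number, such as Cd4, Cd80 or Cd300lf. They were chosen by their gene name on the array, with the subunits of the T cell receptor's CD3 complex (Cd3e, Cd3d, Cd3g and Cd247) left out, and 85 of the 27943 named genes on the array met the rule. They were measured by 136 probes, and each gene is given by its brightest probe, averaged over the 6 arrays. The name decides membership, so 3 intracellular proteins (Cd2ap, Cd2bp2 and Cd3eap) are among them.

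CD numbers (cluster of differentiation) were given to molecules on the surface of blood cells that antibodies recognise, and the numbering carries no common ancestry or function. The set holds coreceptors and costimulators of T cells, their ligands on antigen-presenting cells, B cell receptor subunits, tetraspanins, lipid-presenting molecules and receptors of macrophages and dendritic cells. A developing T cell passes through stages that differ in Cd4, Cd8, Cd24a, Cd44 and Cd69, and an activated T cell shows others, so the set is commonly used to say what stage and state a lymphocyte is in. Arrays measure RNA, and no protein on the cell surface was measured here.

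The study compared 2 cultured lines of the mouse T lymphoma S49. The parental line, S49 Neo, was set against MR 4-25, which the submitters call mannitol recovered. Total RNA from 3 replicates of each line was hybridised in 1 colour to Agilent arrays, 1 array per sample, with no treatment of either line at the time of sampling. Both lines grew in the same medium with heat-inactivated serum. The labels do not say what Neo stands for, whether MR 4-25 is a single clone, how it was exposed to mannitol, or whether replicates came from cultures of their own; p-values therefore reflect only how much these samples varied, which may be technical.

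Arrays lay on 2 slides, with replicates 1 and 2 of both lines on slide 1 and replicate 3 of both lines on slide 2. The third MR 4-25 array was the dimmest, with a 75th percentile of intensity of 521 against 844 to 988 on the other arrays, and 61.3% of its probes were well above background against 69.9% to 76.2%. Its lowest value on the scale used here was -6.97, against -8.42 to -8.12 on the other arrays, so a dim gene could not be read as low there as elsewhere. Values are log2 intensities minus that array's 75th percentile, and 0 is therefore a gene as bright as that percentile. Levels of different genes are not compared, because probes differ in how brightly they report. All 13 T cell markers, among them the members Cd2, Cd5 and Cd28, were well above background on every array of both lines. That call does not by itself tell cell types apart. On all 3 arrays of a line it was given to 7 (Neo) and 5 (MR 4-25) of 9 B cell markers. Of 10 myeloid markers 8 and 6 had it.

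The oligonucleotide behind the only member that passed the test on the higher side is the brighter Cd80 probe, 60 bases, at chr16:38181436-38181495 on the plus strand of build mm7 in the array's annotation, shown because the other Cd80 probe did not report the same difference. Promoters of the genes that passed the test, Cd80 and Cd84, and of Cd274, whose lines did not overlap, follow it, from RefSeq on GRCm38.p6, each a window of 300 bases on the plus strand that ends just past the annotated start: Cd80 at chr16:38458683-38458982, Cd84 at chr1:171839447-171839746 and Cd274 at chr19:29367188-29367487. Capitals mark GGAA, the core bound by ETS factors, or its reverse complement TTCC; the probe was not searched and has no capitals.
Cd80 probe: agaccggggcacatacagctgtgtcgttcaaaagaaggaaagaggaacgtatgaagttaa
Cd80 promoter: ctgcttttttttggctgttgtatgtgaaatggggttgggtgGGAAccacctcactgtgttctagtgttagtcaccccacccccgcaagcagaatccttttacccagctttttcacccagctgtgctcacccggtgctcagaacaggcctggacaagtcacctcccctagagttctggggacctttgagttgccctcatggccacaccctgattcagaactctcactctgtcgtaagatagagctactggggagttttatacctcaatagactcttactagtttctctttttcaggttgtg
Cd84 promoter: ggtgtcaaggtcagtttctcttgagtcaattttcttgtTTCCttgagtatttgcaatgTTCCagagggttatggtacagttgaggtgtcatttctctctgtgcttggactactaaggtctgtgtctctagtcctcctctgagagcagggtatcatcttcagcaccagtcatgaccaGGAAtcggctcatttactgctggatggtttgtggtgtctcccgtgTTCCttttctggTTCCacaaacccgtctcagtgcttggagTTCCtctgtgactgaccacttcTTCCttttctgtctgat
Cd274 promoter: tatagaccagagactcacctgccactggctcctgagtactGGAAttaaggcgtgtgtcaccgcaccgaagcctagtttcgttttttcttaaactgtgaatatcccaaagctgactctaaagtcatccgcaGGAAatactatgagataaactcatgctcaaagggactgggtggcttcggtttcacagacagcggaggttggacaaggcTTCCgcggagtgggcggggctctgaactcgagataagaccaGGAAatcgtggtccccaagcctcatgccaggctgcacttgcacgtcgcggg

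The GGAA core was found once on either strand in the Cd80 promoter window, 7 times in that of Cd84 and 4 times in that of Cd274, and 96% of all 32851 promoters in the table hold at least 1. Both strands were also searched for the interferon-gamma activated site TTCNNNGAA, the interferon response element (GAAA, any 2 bases, GAAA) and the kappa B motif, with overlaps between motifs allowed. None of these 3 lay in the printed windows. They were found in 8.3%, 3.44% and 8.46% of all promoters, and each in 4 of the 66 promoters (6.06%) of the 58 members with an entry. The interferon-gamma site was in windows of Cd160, Cd300e, Cd82 and Cd96, the interferon response element in Cd300c, Cd300d (Cd300c2 in current naming), Cd46 and Cd59a, and the kappa B motif in Cd151, Cd160, Cd177 and Cd300a. A match describes letters only.

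Which molecules each line showed was read from the scanner software's call of well above background. Neo showed 52 of the 85 members on all 3 arrays, 24 on 1 or 2 arrays and 9 on none. MR 4-25 showed 46 on all 3, 29 on 1 or 2 and 10 on none. The lines shared most of this profile: 43 members were well above background on all 6 arrays and 7 on none of the 6 (Cd55, Cd86, Cd200r1, Cd200r3, Cd209a, Cd209d and Cd300c). The 8 members on all 3 Neo arrays and some MR 4-25 arrays (among them Cd14, Cd96, Cd226 and Cd40lg) all lacked the call only on the third MR 4-25 array, the dimmest. Cd80, Cd72 and Cd207 had the call on all MR 4-25 arrays and on only some Neo arrays. Cd84 alone had it on all 3 Neo arrays and on no MR 4-25 array, a pattern of 0.335% of all genes tested, and no member had the opposite pattern, which 0.0791% of all genes tested had. By array, 60, 66 and 71 members were well above background in Neo replicates 1, 2 and 3, and 68, 58 and 56 in MR 4-25.

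**Figure D1:**
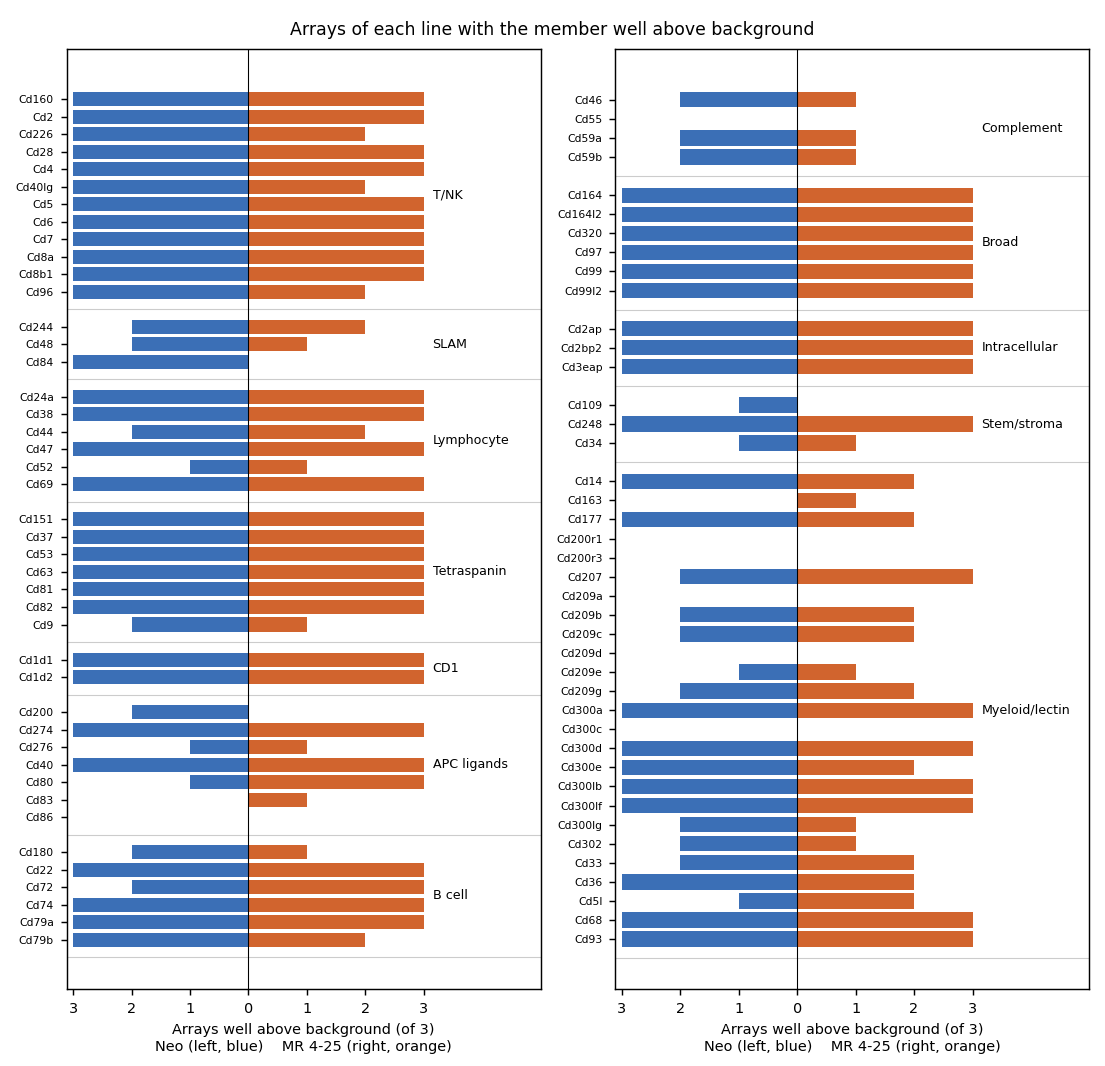
Number of arrays (0 to 3) on which each of 84 members was well above background, by role group, with Neo drawn to the left in blue and MR 4-25 to the right in orange. Cd84 is the only member with 3 arrays on one side and 0 on the other, and 42 of those drawn reach 3 on both sides.

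In the fit across all 21503 genes that passed a filter (3 or more of the 6 arrays well above background), 70 members were tested and 15 lay below the filter. Cd80 was higher in MR 4-25 and Cd84 lower; the other 68 did not pass. Background for this count was 1.2% of all genes tested (0.665% higher, 0.539% lower; limma, Benjamini-Hochberg adjusted p under 0.05), and 2 members are 2.86% of those tested. Both members came through the filter by the line in which they were high. Cd84 had the call on its Neo arrays alone, and Cd80 on all 3 MR 4-25 arrays and 1 Neo array. This share is therefore not read against the background. With the replicate number as a block, no member passed, and 1 gene passed among all tested. In that limma fit 23 members had an unadjusted p under 0.05, against 19 without the block. Over all 21503 genes the counts were 2825 with the block and 2843 without it. An unadjusted p under 0.05 without the block was found for 13 members on the higher side and 6 on the lower, and for 13.2% of all genes.

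The members' arrays separated the lines more often upward than downward. In 20 of 70 members (28.6%) every MR 4-25 array exceeded every Neo array, against 11.2% of all genes tested, and in 8 (11.4%) every MR 4-25 array was below, against 13.2%. Among the 43 members well above background on all 6 arrays these shares were 41.9% and 11.6%, against 14.7% and 15.7% of all such genes. The median log2 difference, MR 4-25 minus Neo, was 0.22 over the 70 members and 0.01 over all genes tested; on slide 1 it was 0.07 against -0.02, and on slide 2, which holds the dimmest array, 0.51 against 0.09. Differences ranged from -2.67 to 1.66, and 16 members (22.9%) exceeded 2-fold in either direction against 10.7% of all genes. These shares describe the set and were not tested. Members also varied more within a line. Their median SD was 0.58 in MR 4-25 and 0.26 in Neo, against 0.42 and 0.23 over all genes tested. Some of the 16 overlapped between lines, such as Cd14, Cd69 and Cd300lg, and others did not, such as Cd40 and Cd80. Here and below, fewer cells with a transcript and less of it in each cell cannot be told apart.

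**Figure D2:**
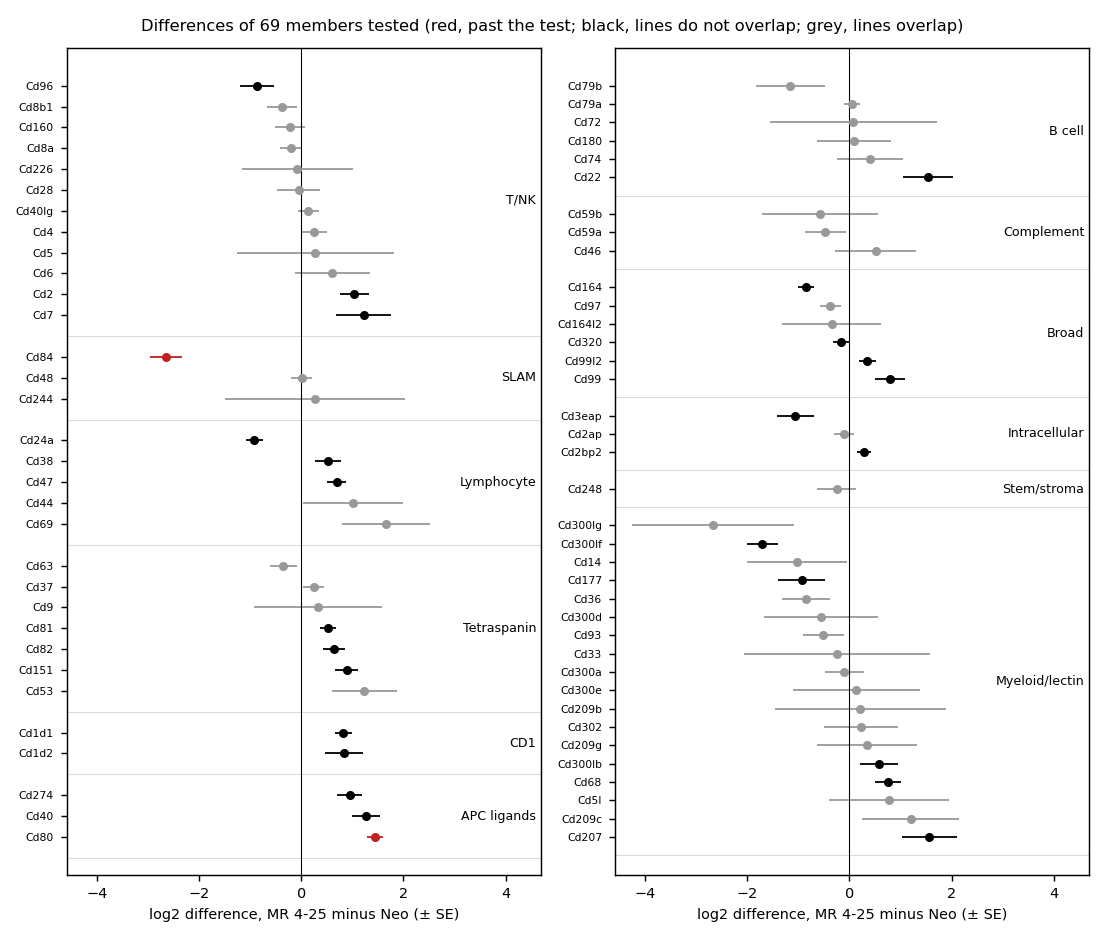
Log2 difference, MR 4-25 minus Neo, with its standard error for 69 of the members tested, ordered within role groups. Cd80 (1.44) and Cd84 passed the test and are red, the Cd84 point being a difference from MR 4-25 values not well above background; members whose lines do not overlap are black and the rest grey, and the longest error bars, such as those of Cd244, Cd5, Cd33 and Cd300lg, belong to members with a large spread within a line.

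Ligands that antigen-presenting cells use toward T cells contained the member that passed on the higher side. Cd80 (B7-1), a ligand of the costimulator Cd28 and of the inhibitor Ctla4, read -5.94, -5.97 and -5.82 in Neo and -4.64, -4.32 and -4.46 in MR 4-25. Every MR 4-25 array was above every Neo array, and the groups stood farther apart than either was wide. MR 4-25 exceeded Neo by 1.44 ± 0.158 (SE, n = 3 per line), or 2.71-fold (limma adjusted p = 0.0271); slide 1 alone gave 1.48 and slide 2 gave 1.37. Only 1 Neo array was well above background, so the size of this difference rests on Neo signals near background, with processed intensities of 13.5 to 16.2 in Neo and 23.7 to 45.8 in MR 4-25. The limma adjusted p rose to 0.146 with the replicate block, to 0.0502 with no filter, to 0.0576 with median scaling, to 0.0648 with quantile normalization, to 0.215 with an intensity trend and robust fit, and to between 0.0517 and 0.18 when any 1 array was left out. Normexp background correction gave a difference of 1.09 (limma adjusted p = 0.521), while all genes shifted by a median of 0.34, and normexp with quantile normalization gave 0.29 (limma adjusted p = 0.286). A dimmer Cd80 probe, 21458 bases away in the mm7 annotation and well above background on 1 array of each line, differed by 0.25 and lay below the filter.

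Cd40, the receptor through which helper T cells activate antigen-presenting cells, read -4.79, -4.17 and -4.14 in Neo and -2.80, -3.39 and -3.10 in MR 4-25. All 6 arrays were well above background and the lines did not overlap, but the difference of 1.27 ± 0.269 (SE, n = 3 per line) did not pass (limma adjusted p = 0.131). Cd274 (PD-L1), the ligand of the inhibitory receptor PD-1, read -1.53, -1.32 and -1.40 in Neo and -0.34, -0.14 and -0.92 in MR 4-25. The lowest MR 4-25 value was on replicate 3, the dim array, and still above all Neo arrays; the difference was 0.95 ± 0.245, 1.18 on slide 1 and 0.48 on slide 2 (limma adjusted p = 0.196). Of the 7 members of this group 3 were tested, and all 3 lay higher in MR 4-25 without overlap, as did 11.2% of all genes tested; the count was not tested. The others were below the filter: Cd86, the partner of Cd80 as a Cd28 ligand, was well above background on no array, Cd83 and Cd276 on 1 or 2 arrays in all, and Cd200 on 2 Neo arrays and no MR 4-25 array. Cd200 read -8.13, -2.10 and -2.20 in Neo, so the Neo arrays differed among themselves by more than the lines did.

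SLAM-family receptors, which bind one another between blood cells, contained the member that passed on the lower side. Cd84 read -4.57, -4.67 and -4.19 in Neo and -7.70, -6.70 and -6.97 in MR 4-25, and its lines did not overlap. It was well above background on all 3 Neo arrays and on none of MR 4-25, where the intensities were 4.15 to 8.76 against 33.1 to 50.1 in Neo, and the third MR 4-25 value was a surrogate set by the scanner software for a spot near background. The fold in MR 4-25 is therefore only approximate. Cd84 was 3.36-fold lower when the Neo mean was set against the lowest signal well above background on each MR 4-25 array. This is not a strict bound, because a gene without the call can lie above that signal. Cd14 lacked the call on the third MR 4-25 array at -4.99, above the -5.61 used there. The measured means were -4.48 ± 0.25 in Neo and -7.12 ± 0.52 in MR 4-25 (SD, n = 3 each), with a limma adjusted p of 0.033. Cd84 passed the filter only through the Neo arrays; with no filter the limma adjusted p was 0.0481. The limma adjusted p was 0.133 with the replicate block, 0.0509 with median scaling, 0.057 with quantile normalization and 0.0779 to 0.179 with any 1 array left out. With normexp background correction, which adds an offset of 50, the value was 0.33, while all genes shifted by a median of 0.34, and with quantile normalization added it was -0.47 (limma adjusted p = 0.098).

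The other SLAM members did not pass. Cd48, the ligand of Cd244, read -5.87, -5.36 and -5.79 in Neo and -5.59, -5.52 and -5.90 in MR 4-25, an overlap of almost the whole range (difference 0.00 ± 0.214). Cd244 read -3.04, -3.23 and -7.98 in Neo and -3.20, -3.28 and -6.97 in MR 4-25. Both of its low values were on slide 2 arrays, 1 of each line.

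**Figure D3:**
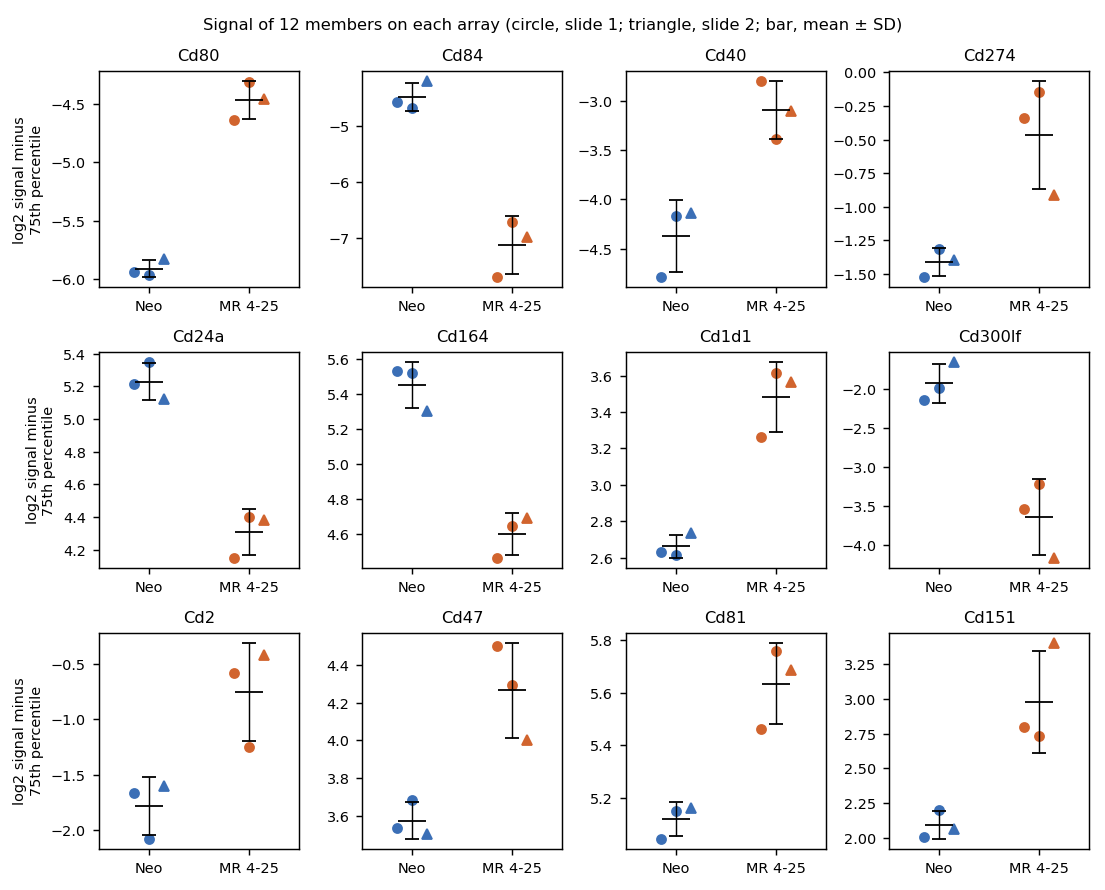
Log2 signal minus the array's 75th percentile for 12 members on each of the 6 arrays, with circles for slide 1, triangles for slide 2 and bars for the mean ± SD of 3 arrays. In all 12 the lines do not overlap; only Cd80 and Cd84 passed the test, and each panel has its own vertical range.

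T cell coreceptors and costimulators made up 12 members, all well above background on the 3 Neo arrays and 9 of them on the 3 MR 4-25 arrays. None of the 12 passed in the limma fit. An unadjusted p under 0.05 was found for 2, beside 13.2% of all genes tested. Cd4, the coreceptor for MHC class II, read -2.81, -2.07 and -2.41 in Neo and -2.40, -2.21 and -1.92 in MR 4-25, with overlapping lines and a difference of 0.25 ± 0.256. Cd8a, a chain of the coreceptor for MHC class I, read -3.20, -2.86 and -3.25 in Neo and -3.43, -3.45 and -3.06 in MR 4-25. Its 3 tested probes differed by -0.31 to -0.11, smaller than the spread between arrays. Cd8b1, the partner chain, read 5.94, 5.66 and 5.51 in Neo and 5.71, 5.48 and 4.78 in MR 4-25, with overlap between the lines (difference -0.38 ± 0.295). The brightest probes of Cd4, Cd8a and Cd8b1 were thus well above background on every array of both lines. So was that of Cd79a, a B cell receptor chain. Cd4 has 2 probes, and the dimmer one lay below the filter. Cd8b1's dimmer probe is placed on another chromosome than the brightest in the array's annotation, on 5 rather than 6.

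Cd2, an adhesion receptor that binds Cd48, read -1.67, -2.08 and -1.60 in Neo and -0.58, -1.25 and -0.42 in MR 4-25. The lines did not overlap, and the difference of 1.04 ± 0.287 was alike on slide 1 (0.96) and slide 2 (1.19), but it did not pass (limma adjusted p = 0.219). Cd7, an immunoglobulin-family molecule of early T cells, read -1.70, -1.69 and -3.47 in Neo and -0.93, -1.08 and -1.19 in MR 4-25. It also separated the lines, by 1.22 ± 0.534, with 1 low Neo array. Cd96, a receptor of T and NK cells for nectin-family ligands, separated them in the other direction, with -3.63, -3.97 and -3.98 in Neo and -4.26, -4.55 and -5.39 in MR 4-25.

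Cd28, the receptor of Cd80, overlapped between lines, with -0.26, -0.82 and 0.22 in Neo and -0.04, -1.06 and 0.08 in MR 4-25. Cd5, a scavenger-family inhibitor of T cell receptor signals, read -4.61, -3.58 and -1.24 in Neo and -4.64, -4.01 and 0.04 in MR 4-25, and Cd6, its relative, read -2.84, -2.16 and -1.44 in Neo and -2.07, -2.44 and -0.10 in MR 4-25. In both genes, and in Cd28, the arrays of slide 2 were the highest of each line. Cd40lg, the helper T cell ligand of Cd40, read -4.74, -4.83 and -5.13 in Neo and -4.49, -4.83 and -4.97 in MR 4-25, with overlap. Cd160 also overlapped. Cd226, an activating receptor, was low on slide 2 in both lines at its brightest probe, which differed by -0.08. Its other tested probe differed by -2.23 and did not pass.

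**Figure D4:**
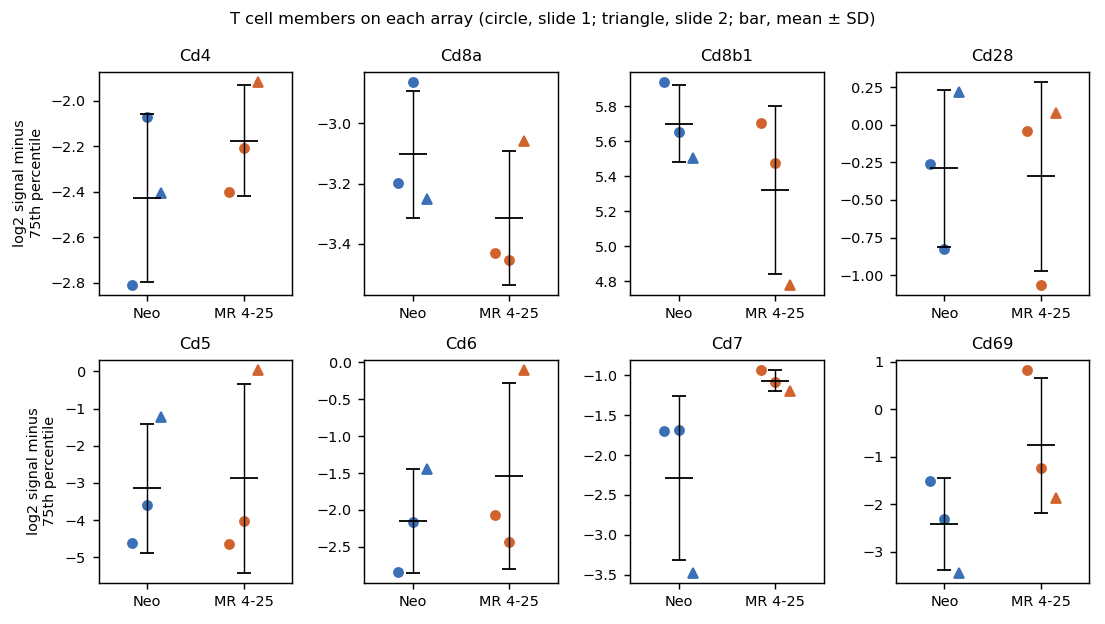
Log2 signal minus the array's 75th percentile on each array for 8 members that mark T cells or their activation, with circles for slide 1, triangles for slide 2 and bars for the mean ± SD of 3 arrays. The lines overlap in all panels but that of Cd7. In the panels of Cd5, Cd6 and Cd28 the triangle is the highest point of each line. It is the lowest of each line in those of Cd7, Cd8b1 and Cd69. Each panel has its own vertical range.

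Molecules that mark lymphocyte maturation, activation and adhesion were 6, of which 5 were tested and none passed. In limma 2 of them had an unadjusted p under 0.05, beside 13.2% of all genes tested. Cd24a, the heat-stable antigen of immature thymocytes, read 5.21, 5.35 and 5.12 in Neo and 4.15, 4.40 and 4.38 in MR 4-25. This was a tight separation downward, by -0.92 ± 0.158 (limma adjusted p = 0.0846); slide 1 gave -1.01 and slide 2 gave -0.75. Cd47, the surface signal that restrains engulfment by macrophages, read 3.54, 3.69 and 3.50 in Neo and 4.50, 4.29 and 4.00 in MR 4-25, a separation upward by 0.69 ± 0.187 that did not pass. All 4 of its probes were higher, by 0.27 to 0.69.

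Cd69, an early activation marker, read -1.51, -2.32 and -3.44 in Neo and 0.82, -1.24 and -1.88 in MR 4-25. It had the largest positive difference among the members tested, 1.66 ± 0.867, but the lines overlapped. Cd44, the hyaluronan receptor that rises in memory T cells, read -5.26, -6.14 and -3.56 in Neo and -4.40, -5.15 and -2.37 in MR 4-25, again highest on slide 2, and its 2 tested probes differed in sign (-0.08 and 1.01). Cd38, an enzyme that consumes NAD, separated the lines by 0.52 ± 0.254. Cd52 was well above background on 1 array of each line and was not tested.

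Tetraspanins, which span the membrane 4 times and gather partner proteins, were tested for all 7 members, and the median difference was 0.52. Separation upward was seen for 3 of them, and all 3 had an unadjusted p under 0.05, against 11.2% and 13.2% of all genes tested; none of the 7 passed in limma. Cd81 read 5.04, 5.15 and 5.16 in Neo and 5.46, 5.76 and 5.69 in MR 4-25 (difference 0.52 ± 0.155). Cd82 read 2.52, 2.17 and 2.78 in Neo and 3.18, 3.01 and 3.19 in MR 4-25 (0.64 ± 0.208). Cd151, a partner of laminin-binding integrins, read 2.01, 2.20 and 2.06 in Neo and 2.80, 2.73 and 3.40 in MR 4-25 (0.89 ± 0.232). The smallest of their adjusted p-values in the limma fit was 0.198, for Cd151. Cd53, a tetraspanin of white blood cells, had the largest tetraspanin difference at 1.23 ± 0.633, with 0.01, -0.49 and 0.77 in Neo and 1.22, 0.33 and 2.45 in MR 4-25, where 1 MR 4-25 array lay within the Neo range. Cd37 and Cd63 overlapped between lines, and Cd9 was well above background on 3 of 6 arrays and ran from -8.13 to -3.86.

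Cd1d1 and Cd1d2 present lipids to natural killer T cells. Cd1d1 read 2.63, 2.62 and 2.74 in Neo and 3.26, 3.62 and 3.57 in MR 4-25, and its difference of 0.82 ± 0.165 was alike on slide 1 (0.81) and slide 2 (0.83), yet did not pass (limma adjusted p = 0.124). Cd1d2 read -1.16, -1.20 and -0.84 in Neo and -0.39, -0.78 and 0.49 in MR 4-25. It separated the lines by a narrow margin, with a difference of 0.84 ± 0.364. These near-identical genes may share probe signal, and their probes cannot be taken as independent.

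B cell receptor subunits and B cell surface molecules were 7 members, all tested, and none passed. In limma 1 of them had an unadjusted p under 0.05, beside 13.2% of all genes tested. Cd79a, a signalling chain of the B cell receptor, was flat over the arrays, with -2.34, -2.39 and -2.47 in Neo and -2.33, -2.54 and -2.20 in MR 4-25. Cd79b, the partner chain, read -3.13, -3.14 and -3.97 in Neo and -3.59, -4.16 and -5.95 in MR 4-25, with overlap. Cd22, an inhibitory receptor that binds sialic acid, had the largest difference of the group, 1.54 ± 0.497, with -3.74, -2.49 and -2.06 in Neo and -1.03, -1.69 and -0.96 in MR 4-25. Those lines did not overlap and both tested probes were higher, by 1.14 and 1.54, but the adjusted p was 0.276 in limma. Cd74, the invariant chain of MHC class II, read -2.08, -2.11 and -4.18 in Neo and -2.12, -2.23 and -2.80 in MR 4-25, lowest on slide 2 in each line. Cd72 ran from -6.20 to -1.78 within Neo alone.

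Broadly expressed molecules were 6, all well above background on all 6 arrays. None passed, and 2 had an unadjusted p under 0.05 in limma, beside 13.2% of all genes tested. Cd164, a sialomucin of adhesion and progenitor cells, read 5.53, 5.52 and 5.30 in Neo and 4.46, 4.64 and 4.69 in MR 4-25. The lines did not overlap and all 3 tested probes were lower (-0.94 to -0.86), but the difference of -0.86 ± 0.158 did not pass (limma adjusted p = 0.0992). Cd99, an adhesion molecule of leukocytes, read 1.89, 1.98 and 1.89 in Neo and 2.54, 2.31 and 3.30 in MR 4-25, and its relative Cd99l2 differed by 0.35 ± 0.16; both separated the lines upward. Cd320, the uptake receptor for vitamin B12 bound to transcobalamin, separated them by only -0.17 ± 0.155. Cd97 and Cd164l2 overlapped.

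The complement regulators Cd46, Cd55, Cd59a and Cd59b protect cells from their own complement, and none of them was well above background on all arrays of either line. Of the intracellular proteins, Cd3eap, a subunit of RNA polymerase I, read 1.90, 2.11 and 2.29 in Neo and 0.89, 1.75 and 0.49 in MR 4-25, a separation downward by -1.06 ± 0.362 (limma adjusted p = 0.306). Cd2bp2, a splicing-related binding partner of Cd2, separated upward by 0.28 ± 0.137, and Cd2ap, an adaptor of the actin skeleton, overlapped. In the stem and stromal group, Cd248 overlapped, with values from -2.85 to -2.42 apart from the dim MR 4-25 replicate 3 at -3.72. Cd34, a progenitor marker, read -4.48 in Neo replicate 3 and -3.77 in MR 4-25 replicate 3 and no more than -7.51 on all 4 arrays of slide 1; Cd109 was well above background on 1 array.

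Receptors of macrophages, dendritic cells and granulocytes were the largest group, with 25 members. Of these, 18 were tested and none passed. In limma 3 of the 18 had an unadjusted p under 0.05, beside 13.2% of all genes tested. The other 7 lay below the filter, and 6 members of the group had the call of well above background on each of the 6 arrays. Cd300lf, an inhibitory receptor for lipids, had the largest difference of those 6, with -2.15, -1.98 and -1.65 in Neo and -3.53, -3.22 and -4.17 in MR 4-25. It separated the lines by -1.71 ± 0.303 (limma adjusted p = 0.0895), although its other tested probe differed by only -0.03. Cd68, a lysosomal glycoprotein of macrophages, read -2.55, -2.62 and -3.28 in Neo and -2.02, -2.18 and -1.98 in MR 4-25 (0.75 ± 0.246). Cd207 (langerin), a lectin of Langerhans cells, read -5.13, -6.24 and -4.44 in Neo and -3.44, -4.34 and -3.34 in MR 4-25, a separation by a narrow margin that did not pass (limma adjusted p = 0.315). Cd14, a coreceptor for lipopolysaccharide, read -1.57, -1.59 and -2.04 in Neo and -1.56, -1.73 and -4.99 in MR 4-25, so its difference of -1.03 ± 0.984 came from the third MR 4-25 array; without that array it was 0.09.

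Several receptors of this group varied more among arrays of a line than between lines. Cd300lg, a mucin-like receptor, had the most negative difference of all members, -2.67 ± 1.58, and read -6.68, -1.06 and -1.64 in Neo and -6.54, -5.49 and -5.36 in MR 4-25. The low Neo array lay below every MR 4-25 array. Cd33, a receptor for sialic acid, read -7.52, -3.19 and -3.53 in Neo and -4.84, -7.80 and -2.33 in MR 4-25. Cd300e read -1.84, -1.94 and -4.91 in Neo and -1.66, -1.82 and -4.80 in MR 4-25, low on slide 2 in both lines. The within-line SD exceeded 1 in at least 1 line for 26 members tested (37.1%), against 32.3% of all genes.

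Slide 1 and slide 2 did not overlap in 18 of the 70 members tested (25.7%), against 32.3% of all genes tested. Besides Cd5, Cd244 and Cd300e they included Cd209b (slide 2 minus slide 1, 3.36), Cd226 (-2.64), Cd9 (2.63), Cd44 (2.27) and Cd180 (-1.70), for which the difference between lines was 0.21, -0.08, 0.33, 1.01 and 0.09. Cd80, Cd84, Cd24a, Cd164 and Cd1d1 were not among them. The part of the slide, or of any step shared by replicate 3 of both lines, in these values was not tested.

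Probes could be compared for the 21 members with at least 2 tested probes: 18 had the same sign in all of them and 3 did not (Cd44, Cd93 and Cd300d). Cd164, Cd47 and Cd22 were among the 18. So were genes whose 2 tested probes were far apart in size: Cd226 (-2.23 and -0.08), Cd300lf (-1.71 and -0.03), Cd9 (0.33 and 1.97) and Cd72 (0.07 and 1.10).

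CD molecules under other symbols were read from a list of 65 genes, of which 59 were tested. Of these, 2 were higher, 2 lower and 55 did not pass, beside the background of 1.2%. The list was chosen with earlier results of these data known, so this count is not read against the background. Il2ra (CD25), the chain that gives the interleukin-2 receptor its high affinity, read -2.07, -2.31 and -2.21 in Neo and 0.80, 0.77 and 1.19 in MR 4-25, which is 3.11 ± 0.185 higher (limma adjusted p = 0.00734). Fas (CD95), the death receptor, read 0.40, 0.51 and 0.52 in Neo and 1.83, 1.56 and 1.64 in MR 4-25, 1.20 ± 0.15 higher (limma adjusted p = 0.0375). Both were well separated on both slides.

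Lair1 (CD305), an inhibitory collagen receptor, read 0.66, 0.82 and 1.11 in Neo and -5.39, -6.73 and -4.64 in MR 4-25, and its difference was -6.45 ± 0.559 (limma adjusted p = 0.0152). Of the MR 4-25 arrays 2 were well above background, so the size of this fall rests on signals near background. Itgal (CD11a), a subunit of the adhesion integrin LFA-1, read 2.00, 1.61 and 1.73 in Neo and -0.26, -0.34 and -0.76 in MR 4-25, a difference of -2.23 ± 0.212 (limma adjusted p = 0.019). Without MR 4-25 replicate 3, Il2ra, Itgal and Lair1 still passed and Fas did not, and without any 1 of the other arrays none of the 4 passed. With the replicate block 0 of the 59 passed. In that limma fit 21 of the 59 had an unadjusted p under 0.05, beside 2825 of the 21503 genes tested.

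Markers of other cells were measured beside these values, as sums of linear signal relative to each array's 75th percentile. T cell markers (13 of 13 tested, none past the test, 5 with an unadjusted p under 0.05 in limma) summed to 332 to 374 in Neo and 280 to 314 in MR 4-25, so the sums did not overlap. Bright probes weigh most in a sum, such as that of Thy1 (log2 6.89 to 7.18 over the 6 arrays). By gene, 6 of the 13 lay lower in MR 4-25 without overlap and 1 higher. Among all genes tested these shares were 13.2% and 11.2%. B cell markers (8 of 9 tested) summed to 1.69 to 1.85 in Neo and 1.38 to 2.01 in MR 4-25, and 7 and 5 of the 9 had the call on every array of the line. Only Blnk, an adaptor of B cell receptor signalling, passed, with a difference of -1.90 (limma adjusted p = 0.041). Myeloid markers (10 of 10 tested, none past the test, 2 with an unadjusted p under 0.05) summed to 1.29 to 2.06 in Neo and 2.00 to 2.49 in MR 4-25. NK cell markers summed to 0.306 to 0.547 and 0.513 to 0.583, erythroid markers to 0.558 to 1.44 and 0.732 to 1.52, and stromal and endothelial markers to 0.696 to 1.42 and 1.14 to 1.56, with none of these past the test (0, 0 and 1 with an unadjusted p under 0.05). Among all genes tested 13.2% had an unadjusted p under 0.05 in limma. The part of other cells in the members' values was not tested.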

How the data were processed

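Total RNA of 3 Neo and 3 MR 4-25 samples was hybridised in 1 colour. The deposited scanner output gives a Cy3 intensity per spot, which the authors had background-subtracted in Agilent Feature Extraction, version 9.5 in the submitters' processing notes. Per the file headers the full version was 9.5.3.1. The deposited value table held the same intensities. Positions are those of the array annotation on build mm7; the genome build otherwise used is not given in the sources used here.

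Control spots were left out, outlier spots masked (34 probes lost), spots of a probe averaged on the log2 scale, and each array's 75th percentile subtracted; the deposited values are not on a log2 scale. A gene is the file's name, at its brightest probe. Tests used limma 3.58.1 in R 4.3.3 (lmFit and eBayes on all 6 arrays), two-sided, Benjamini-Hochberg over 21503 genes, with 1 array per sample limiting the precision. Figures used matplotlib 3.10.9. The fit was tested on simulated data.

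Replicate numbers were used as pairs only in the fit with the replicate block, because deviations of same-numbered arrays correlated at 0.29, 0.21 and 0.56. On slide 1 the crossed numbers correlated more, at 0.41 and 0.38, so the numbers are not shown to mark pairs. The main fit did not pair the arrays. Named are members past the test, those on all arrays of one line and none of the other, and the largest difference per role group. A fixed list of 27 was also named, of which Cd27 was not found under that gene name on the array. Other members were named after their values were seen. The values of 1 member, which stays in the counts, are not reported or drawn here. The members, role groups and lists were chosen with earlier results of these data known. Alternatives were other background correction, scaling, filters, probe rules, names, weights, blocks and left-out arrays.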

Additional observations from a re-analysis of the deposited data

How the results depend on the processing

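With the slide as a block, names through the RefSeq table, probes averaged per gene, each probe tested by itself and outlier spots kept, the same members passed, Cd80 and Cd84. The call of 2 members became 12 with array quality weights, Cd80 and Cd84 among them. The weights ran from 0.132 for MR 4-25 replicate 3 to 4.78 for replicate 2. The call became 4 with a filter on all 6 arrays, which Cd80 and Cd84 do not pass, and 1 without the filter. It became 0 with median scaling, quantile normalization, normexp, the replicate block, slide 1 alone and each left-out array (range 0 to 0). In these 11 limma fits without a call, 12 to 24 members and 1635 to 3465 of all genes had an unadjusted p under 0.05. The main limma fit had 19 members and 2843 genes (13.2%) under that value. The member counts were not tested against those of all genes. An intensity trend with a robust fit called Cd164, Cd1d1 and Cd24a, and normexp with quantile normalization Cd164, Cd24a and Cd300lf. Over all genes the 259 calls became 2054 with weights, 401 with every probe, 518 with the filter on all 6 arrays, 719 with the trend, 77 with normexp, 504 with normexp and quantiles, 127 on slide 1, 1 with the replicate block and 0 to 224 without 1 array. The 4 calls under other symbols became 15 with weights, 7 with the trend, 2 with normexp, 0 with the block and 0 to 5 without 1 array. The block leaves every difference as it is and changes only its error. The members' median of 0.22 was 0.55 with normexp, which moved all genes by 0.34, and 0.09 to 0.33 without 1 array. Leaving out 1 array of a line, a choice made after seeing the data, left 55 to 62 members on both remaining Neo arrays and 47 to 55 on both remaining MR 4-25 arrays.

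Directions turned, each for values that did not pass except Cd84, as follows; causes were not tested. With normexp: Cd84 0.33, Cd14 0.21, Cd248 0.52, Cd79b 0.43 and Cd8a 0.41. With weights: Cd248 0.00043, Cd5 -0.016 and Cd79a -0.13. On slide 1: Cd248 0.068, Cd5 -0.23, Cd74 -0.082 and Cd79a -0.073. With median scaling: Cd48 -0.011. With 1 array left out: Cd14 -1.63 to 0.087, Cd248 -0.53 to 0.13, Cd28 -0.32 to 0.31, Cd40lg -0.0027 to 0.24, Cd48 -0.10 to 0.16, Cd5 -1.18 to 1.23, Cd6 -0.11 to 1.06, Cd74 -0.29 to 0.76 and Cd79a -0.038 to 0.13. Signals near background limit Cd80 in Neo and Cd84 in MR 4-25.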
